A study of Rattus norvegicus with 36 samples.

Results

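The genes described here carry thyroid hormone in plasma and liver cells, activate it, or respond to it: Serpina7, Ttr, Dio1, Crym, Thrsp, Thrb and Thra. They were chosen by name, with earlier results of these data known. Every probe set that the platform annotation assigned to one of these symbols alone was used. The genes make up 7 of the 14217 genes named on the array, read by 14 of 31042 tested probe sets. Thrb was read by 4 probe sets, Thrsp and Thra by 3 each, and the other genes by 1 each. The livers came from male Harlan Sprague Dawley rats, 7 weeks old when the study began and fed NTP-2000 diet, which received PBDE47 (2,2',4,4'-tetrabromodiphenyl ether, a brominated flame retardant) in corn oil by gavage on 5 consecutive days. The 6 groups were corn oil vehicle and 5 daily doses, namely 0.0485 mg/kg, 0.485 mg/kg, 4.85 mg/kg, 48.5 mg/kg and 485 mg/kg, with 6 animals and 6 arrays in each, and RNA was taken from the left liver lobe the day after the last dose. All groups share the corn oil and the gavage, and no untreated animals were analysed here. The strain carried no transgene or deletion named in the labels.

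Thyroid hormone circulates bound to carrier proteins that the liver secretes, among them thyroxine-binding globulin, transthyretin and albumin. Hepatocytes take it up through membrane transporters, hold it in the cytosol on binding proteins, and convert thyroxine to the active hormone with a selenium-containing deiodinase. The active hormone binds nuclear receptors, which raise or lower target genes in lipid and carbohydrate metabolism.

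At 485 mg/kg 4 of the 7 genes were called lower in the liver, both plasma carriers, the deiodinase and the cytosolic binder. Of all 14217 genes, each read by its brightest probe set, 20.9% were called at this dose, 11.5% higher and 9.43% lower. Serpina7, which encodes thyroxine-binding globulin, was 6.12-fold lower than in vehicle (log2 change -2.61 ± 0.35, SE), and Crym, which encodes the cytosolic binder mu-crystallin, was 1.97-fold lower (-0.98 ± 0.08). Ttr, which encodes transthyretin, was 1.08-fold lower (-0.11 ± 0.03), and Dio1, which encodes the hepatic deiodinase, was 1.19-fold lower (-0.25 ± 0.09). The calls of Serpina7 and Crym held in all 8 alternative fits and those of Ttr and Dio1 did not, with Ttr called in 5 of 8 and Dio1 in 2 of 8. Neither Ttr nor Dio1 passed the F test over all doses (adjusted p = 0.109 and 0.0934 in limma). The receptors Thrb and Thra and the response gene Thrsp did not pass the test at any dose. Changes are differences of log2 RMA values from limma with n = 6 arrays per group, and a probe set was called at a Benjamini-Hochberg adjusted p below 0.05. In bulk liver, fewer cells of a type and less RNA per cell cannot be told apart.

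The proximal promoters of the carriers and the deiodinase are shown because these genes, with Crym, were the ones that fell. Each is the 250 bases upstream of the annotated start in RefSeq, rat build GRCr8, written 5′ to 3′ on the strand of the gene. RefSeq entries matched 6 of the 7 genes in the promoter table, all except Crym. Serpina7 lies on the minus strand at chrX:107457682-107457931, Ttr on the plus strand at chr18:12218508-12218757, and Dio1 on the minus strand at chr5:127319785-127320034. Capitals mark GTTAAT, the first letters of the site of the hepatocyte factor HNF1.
Serpina7: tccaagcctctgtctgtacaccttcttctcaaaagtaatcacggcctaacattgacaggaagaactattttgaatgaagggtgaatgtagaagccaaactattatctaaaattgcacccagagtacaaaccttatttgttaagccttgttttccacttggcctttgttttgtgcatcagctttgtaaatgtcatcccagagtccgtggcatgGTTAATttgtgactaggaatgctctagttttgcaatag
Ttr: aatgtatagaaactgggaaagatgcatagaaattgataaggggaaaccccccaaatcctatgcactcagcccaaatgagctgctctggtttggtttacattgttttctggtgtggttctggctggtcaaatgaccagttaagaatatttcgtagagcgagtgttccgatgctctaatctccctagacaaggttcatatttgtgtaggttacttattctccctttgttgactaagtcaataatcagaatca
Dio1: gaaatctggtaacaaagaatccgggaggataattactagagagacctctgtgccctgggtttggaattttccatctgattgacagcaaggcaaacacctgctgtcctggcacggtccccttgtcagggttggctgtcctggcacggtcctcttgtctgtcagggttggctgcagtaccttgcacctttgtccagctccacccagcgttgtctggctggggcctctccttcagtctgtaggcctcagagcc
GTTAAT was found once in the Serpina7 window, starting 38 bases upstream of the start, and on neither strand of the Ttr and Dio1 windows. Of 33469 rat promoters of the same length, 6.45% hold it on either strand. AGGTCA, a core hexamer of nuclear receptor elements, is held by 14.1% of these promoters and was on neither strand of the 3 windows. GCGTG, the core of the element bound by the aryl hydrocarbon receptor, is held by 25.9% and was likewise not among these letters. The GTTAAT of Serpina7 was the only match in the 3 windows, so no overlap of motifs was possible. Among the other members, the Thrb window also holds GTTAAT, on the other strand and likewise 38 bases upstream, and GCGTG 53 bases upstream, while the Thrsp and Thra windows hold none of these motifs. A match of letters describes the sequence only, and so does the lack of one in this window.

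The question the study asked was which liver transcripts differ from vehicle at each dose, at a false discovery rate under 5%. Of the 14 probe sets, 4 were called at 485 mg/kg, all lower, and 0 at each smaller dose. Over all probe sets 15.0% were called at 485 mg/kg, of which 7.81% of those tested were higher and 7.22% lower. For 48.5 mg/kg the share was 3.39%, for 4.85 mg/kg it was 0.0193%, and both smaller doses had 0%. The members' share at 485 mg/kg was 28.6%, and their median log2 change was -0.11 against -0.01 for all probe sets. Because the members were chosen with earlier results of these data known, this comparison describes them and tests nothing. At an unadjusted p under 0.05 limma listed 0, 0, 1, 2 and 4 of the 14 from the lowest to the highest dose. The shares of all probe sets at that p were 4.89%, 4.45%, 6.46%, 15.5% and 25.9% in the same order, so the whole array rose with dose too. A moderated F test over the 5 doses together called 2 of the 14, Serpina7 (adjusted p = 1.12e-07) and Crym (adjusted p = 8.21e-11), and 13.0% of all probe sets.

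**Figure D1:**
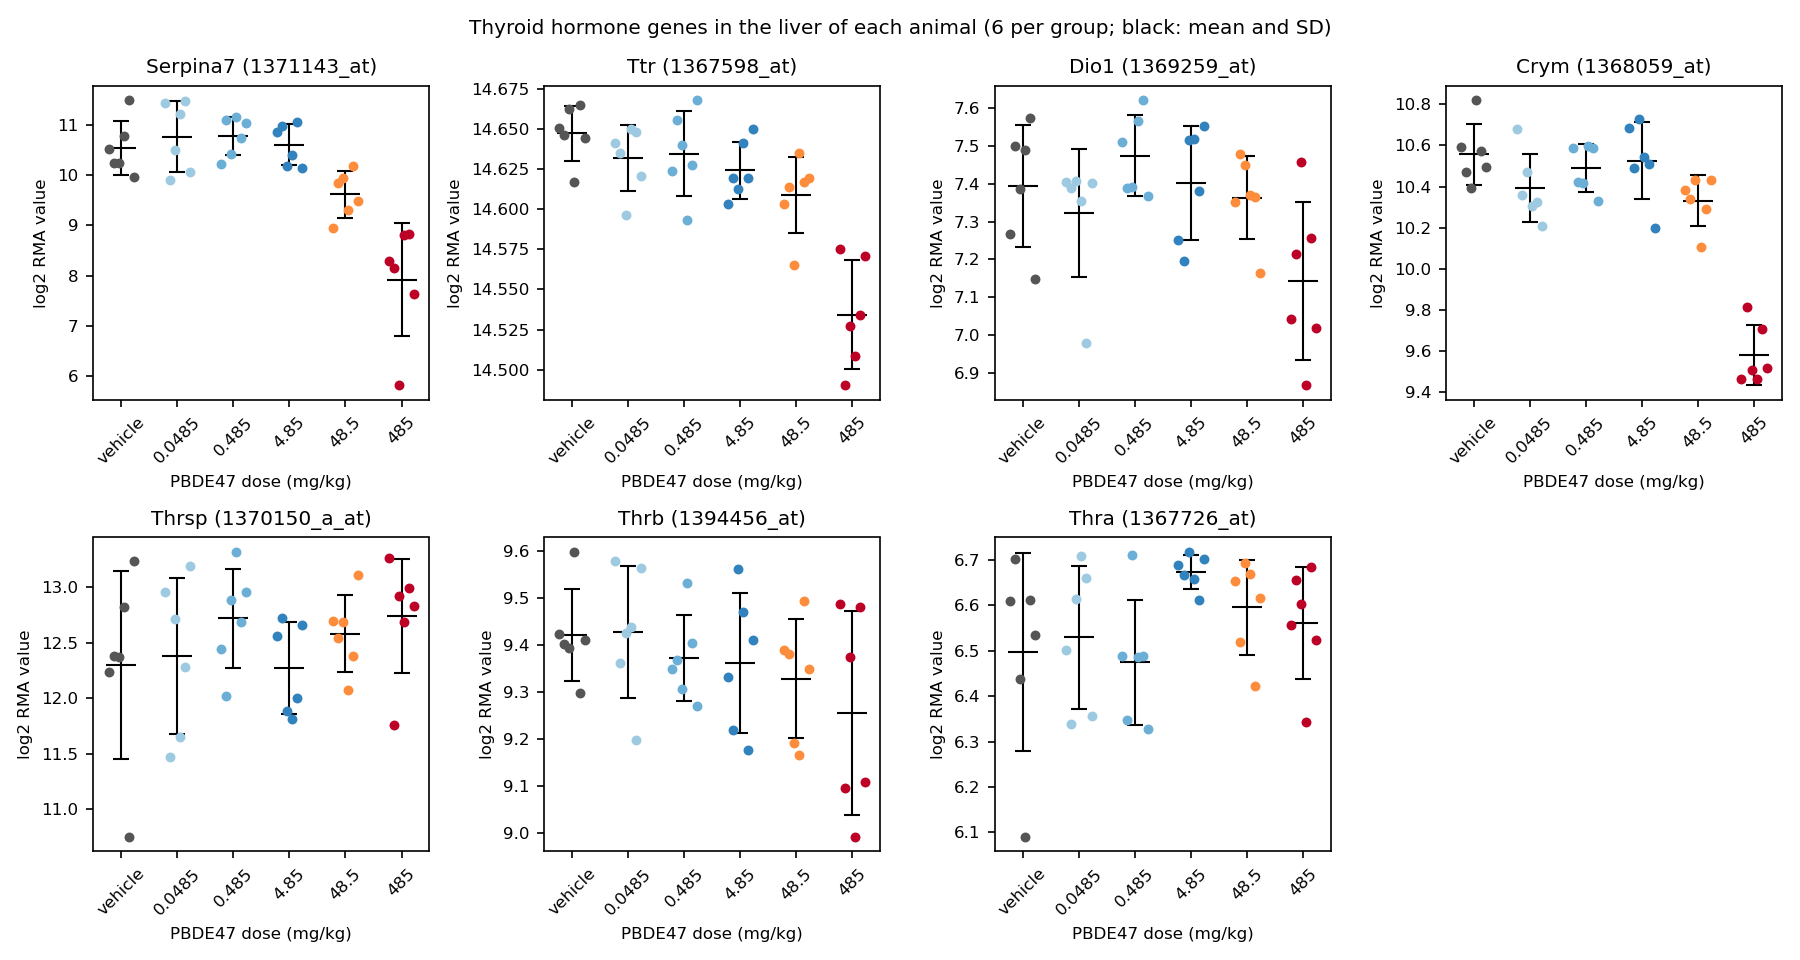
Log2 RMA level of the brightest probe set of each of the 7 genes (vertical axis) in every array, by PBDE47 dose in mg/kg from vehicle to 485 (horizontal axis). Points are arrays and bars are group means with SD (n = 6), and each panel has its own vertical range. The Serpina7 points at 485 mg/kg lie between 5.81 and 8.83 and those of Crym between 9.46 and 9.82, below all vehicle points, while the Thrsp, Thrb and Thra points overlap across groups.

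Serpina7 encodes thyroxine-binding globulin, the high-affinity plasma carrier of thyroxine in many mammals, and its product in the adult rat circulates at a low level. Its probe set (1371143_at) read 8.28, 8.14, 5.81, 8.81, 8.83 and 7.64 on the log2 scale in the livers at 485 mg/kg, against 10.52, 10.24, 10.23, 10.76, 11.48 and 9.96 in vehicle livers. All 6 arrays at 485 mg/kg lay below the lowest vehicle array. The animal of replicate 3 at 485 mg/kg, at 5.81, was the lowest of the 36.
The change of -2.61 ± 0.35 had a 95% interval of -3.32 to -1.90 and an adjusted p of 5.76e-07 in limma. It was the 4th largest fall among the 14217 genes at this dose, and among the 1341 genes called lower. Without replicate 3 at 485 mg/kg the change was -2.19 (adjusted p = 5.05e-07).

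The livers at 48.5 mg/kg read 8.93, 9.85, 9.94, 9.30, 10.18 and 9.48 for Serpina7. Of these, 5 of 6 lay below every vehicle array. The log2 change against vehicle was -0.92 ± 0.35, a level 1.89-fold lower, with an interval of -1.63 to -0.21, and it did not pass the adjustment (adjusted p = 0.160 in limma, 0.0127 before adjustment).
At 0.485 and 4.85 mg/kg every array lay within the vehicle range, and at 0.0485 mg/kg 1 of 6, replicate 2, lay just below it. The arrays at 4.85 mg/kg ran from 10.15 through a median of 10.62 to 11.05, those at 0.485 mg/kg from 10.22 through 10.88 to 11.14, and those at 0.0485 mg/kg from 9.90 through 10.85 to 11.47. The changes against vehicle were 0.23, 0.24 and 0.07 from the lowest dose upward, each with an SE of 0.35.

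The step between the highest doses was tested directly, and in that comparison 2 of the 14 probe sets were called, both lower. Of all probe sets 4.86% were called, 2.31% as lower. Serpina7 was 3.24-fold lower at 485 than at 48.5 mg/kg (-1.69 ± 0.35, adjusted p = 0.00182 in limma), and the arrays of these groups did not overlap. In order of level, the group means were 7.92 ± 1.12 at 485 mg/kg and 9.61 ± 0.46 at 48.5 mg/kg, then 10.53 ± 0.54 in vehicle and 10.60 ± 0.41 at 4.85 mg/kg, then 10.76 ± 0.70 at 0.0485 and 10.77 ± 0.38 at 0.485 mg/kg (SD). Neighbours in this order differed by more than the larger SD between 485 and 48.5 mg/kg and between 48.5 mg/kg and vehicle, and nowhere among the remaining groups. The step from 4.85 to 48.5 mg/kg, in which 1.18% of all probe sets and none of the 14 were called, gave -0.99 ± 0.35 for Serpina7 (adjusted p = 0.188 in limma). That step had an adjusted p of 0.0485 when only its own 12 arrays were fitted.

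Ttr encodes transthyretin, the main plasma carrier of thyroxine in the rat, which also carries retinol bound to Rbp4. Its probe set (1367598_at) read 14.58, 14.49, 14.53, 14.51, 14.53 and 14.57 at 485 mg/kg, against 14.65, 14.65, 14.66, 14.62, 14.66 and 14.64 in vehicle. All 6 arrays at 485 mg/kg lay below the vehicle arrays, by a small distance.
The change was -0.11 ± 0.03 (adjusted p = 0.0133 in limma). With the deposited values quantile normalized again it was -0.06 and the adjusted p was 0.229, and with only the 12 arrays compared the adjusted p was 0.140. The call held in 5 of the 8 alternative fits. It also held in all 12 fits that each left out 1 array (adjusted p of 0.0130 to 0.0365 in limma). At 48.5 mg/kg the arrays ran from 14.56 through 14.62 to 14.63, with a change of -0.04 ± 0.03 that did not pass, and at the smaller doses all arrays lay between 14.59 and 14.67. The level at 485 mg/kg differed from that at 48.5 mg/kg by -0.07 ± 0.03, more than the larger SD, but limma's adjusted p was 0.231. The ordinary test of the same model gave an adjusted p of 0.000678 for that step.
The Ttr values lay 0.39 to 0.55 below the highest value of their array, close to the top of the scale. The 20 other probe sets within 0.3 of its mean level had a median change of -0.05 at 485 mg/kg, with 6 called lower and 1 higher. Of these 20, 4 changed by at least as much as Ttr. Across the 7 members, 1 further probe set, shared with other genes, was not used.

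Dio1 encodes type 1 iodothyronine deiodinase, the selenium-containing enzyme that makes active hormone from thyroxine in liver and is itself raised by thyroid hormone. Its probe set (1369259_at) read 7.04, 7.21, 7.46, 6.87, 7.26 and 7.02 at 485 mg/kg, against 7.27, 7.50, 7.38, 7.49, 7.57 and 7.15 in vehicle. Of the arrays at 485 mg/kg, 3 of 6 lay below the vehicle range and the groups overlapped.
The change was -0.25 ± 0.09 with an interval of -0.43 to -0.07 and an adjusted p of 0.0485 in limma, at the edge of the threshold. The call ended when the array of replicate 4 at 485 mg/kg was left out (adjusted p = 0.152), and it held in 4 of the 12 fits that each left out 1 array. At 48.5 mg/kg the arrays ran from 7.16 through 7.37 to 7.48, with a change of -0.03 ± 0.09, and no neighbours in the order of group levels differed by more than the larger SD.

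Crym encodes mu-crystallin, which binds active thyroid hormone in the cytosol and also acts as a ketimine reductase. Its probe set (1368059_at) read 9.47, 9.82, 9.51, 9.46, 9.71 and 9.52 at 485 mg/kg, against 10.59, 10.47, 10.39, 10.82, 10.57 and 10.49 in vehicle. The groups did not overlap, and the 6 treated livers lay within a narrow band.
The change was -0.98 ± 0.08 with an interval of -1.15 to -0.80 and an adjusted p of 5.03e-11 in limma. Leaving out each array in turn moved it between -1.02 and -0.92. It was the 75th largest fall of the 14217 genes.
At 48.5 mg/kg Crym read 10.39, 10.34, 10.43, 10.11, 10.29 and 10.43, with 4 of 6 arrays below the vehicle range. Its change there was -0.23 ± 0.08 and did not pass (adjusted p = 0.153 in limma). At 0.0485 mg/kg, the lowest dose, 4 of 6 arrays also lay below the vehicle range (-0.16 ± 0.08, adjusted p = 1.00), and at 0.485 and 4.85 mg/kg 1 of 6 did. The step from 48.5 to 485 mg/kg was called, with Crym 1.68-fold lower at 485 mg/kg (-0.75 ± 0.08, adjusted p = 1.66e-07) and no overlap between those arrays. At the lower doses the group medians were 10.34, 10.51 and 10.53 from 0.0485 to 4.85 mg/kg, beside 10.53 in vehicle.

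**Figure D2:**
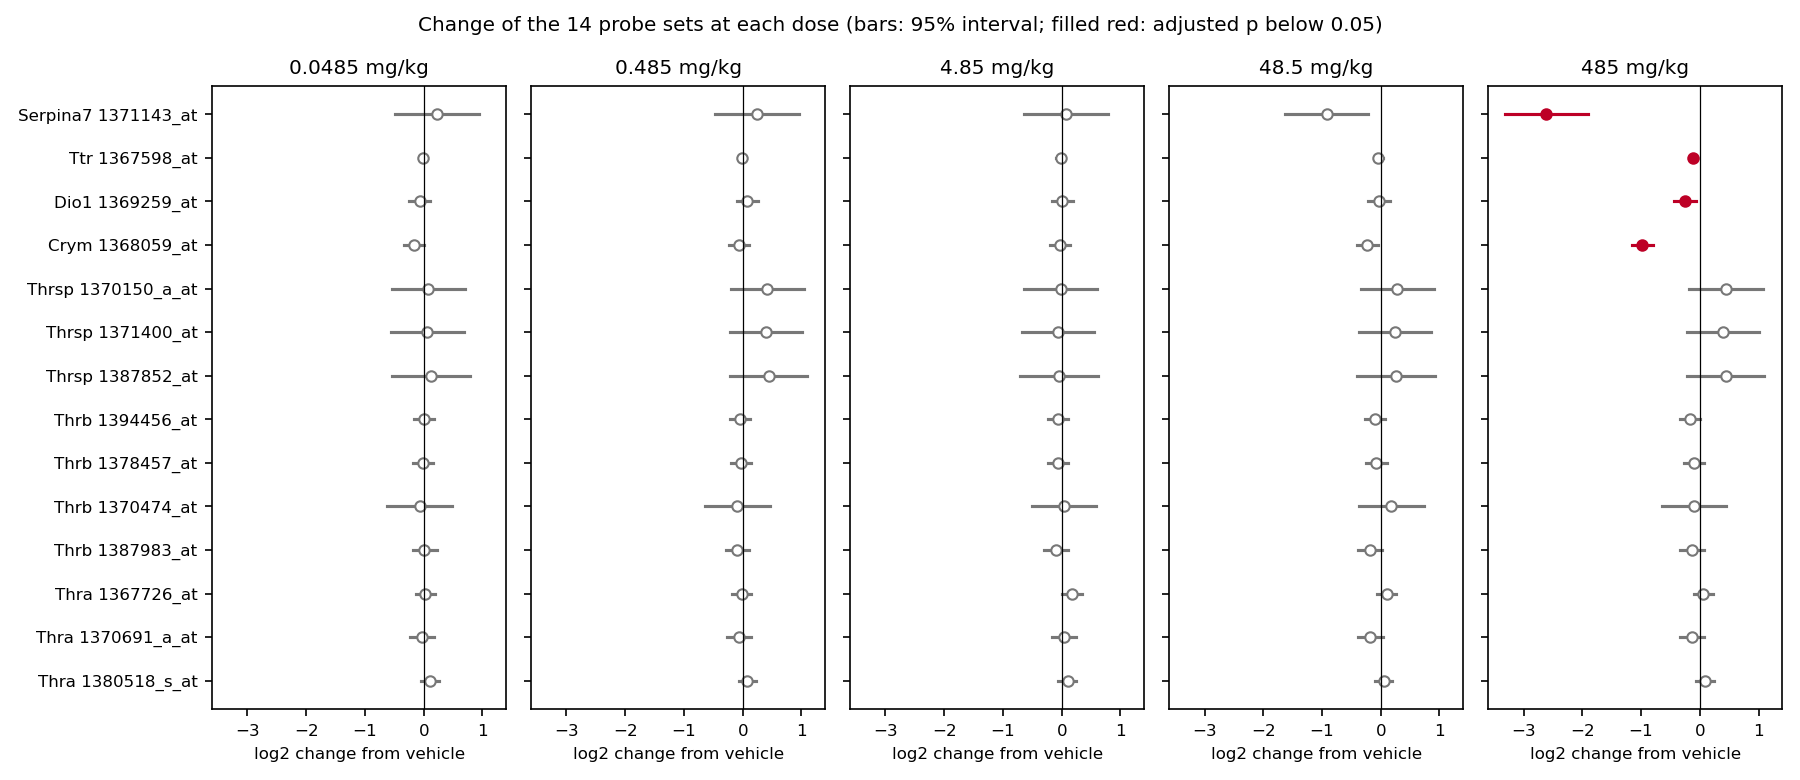
Log2 change from vehicle (horizontal axis) of each of the 14 probe sets (1 row each) in 1 panel per dose, with 95% intervals from limma and filled red points for an adjusted p below 0.05. The intervals of Serpina7 (-3.32 to -1.90) and Crym (-1.15 to -0.80) at 485 mg/kg lie farthest from 0, and those of Thrsp, wide in every panel, span 0 at every dose.

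Thrsp encodes the thyroid hormone responsive protein Spot 14, a nuclear protein of lipogenic tissue that thyroid hormone and carbohydrate feeding raise in rat liver. Its brightest probe set (1370150_a_at) read 13.26, 11.76, 12.92, 12.68, 12.99 and 12.84 at 485 mg/kg, against 12.23, 12.38, 12.37, 12.82, 10.75 and 13.24 in vehicle. The groups overlapped, and the vehicle range from 10.75 to 13.24 took in all but 1 of the arrays at 485 mg/kg.
The changes were 0.08, 0.42, -0.02, 0.28 and 0.44 from the lowest to the highest dose, each with an SE of 0.31, and the interval at 485 mg/kg was -0.18 to 1.07 (adjusted p = 0.400 in limma). A change of up to 1.07 higher, or 0.18 lower, therefore lies within this interval. Replicate 5 of vehicle was the lowest vehicle array for Thrsp and the highest for Serpina7. Without it the Thrsp change was 0.13 at 485 mg/kg and -0.03 at 48.5 mg/kg.

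The other Thrsp probe sets gave nearly the same values on each array. At 485 mg/kg the change was 0.40 ± 0.30 for 1371400_at (adjusted p = 0.457) and 0.44 ± 0.33 for 1387852_at (adjusted p = 0.442 in limma). Across the 36 arrays the 3 probe sets correlated with r of 0.99 to 1.00, as repeated readings of the same RNA, and the gap between any pair of them departed from its mean by at most 0.18. The spread of Thrsp among animals was thus shared by its probe sets, and was larger than that of Crym in every group (SD 0.35 to 0.85 for Thrsp, 0.12 to 0.19 for Crym).

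**Figure D3:**
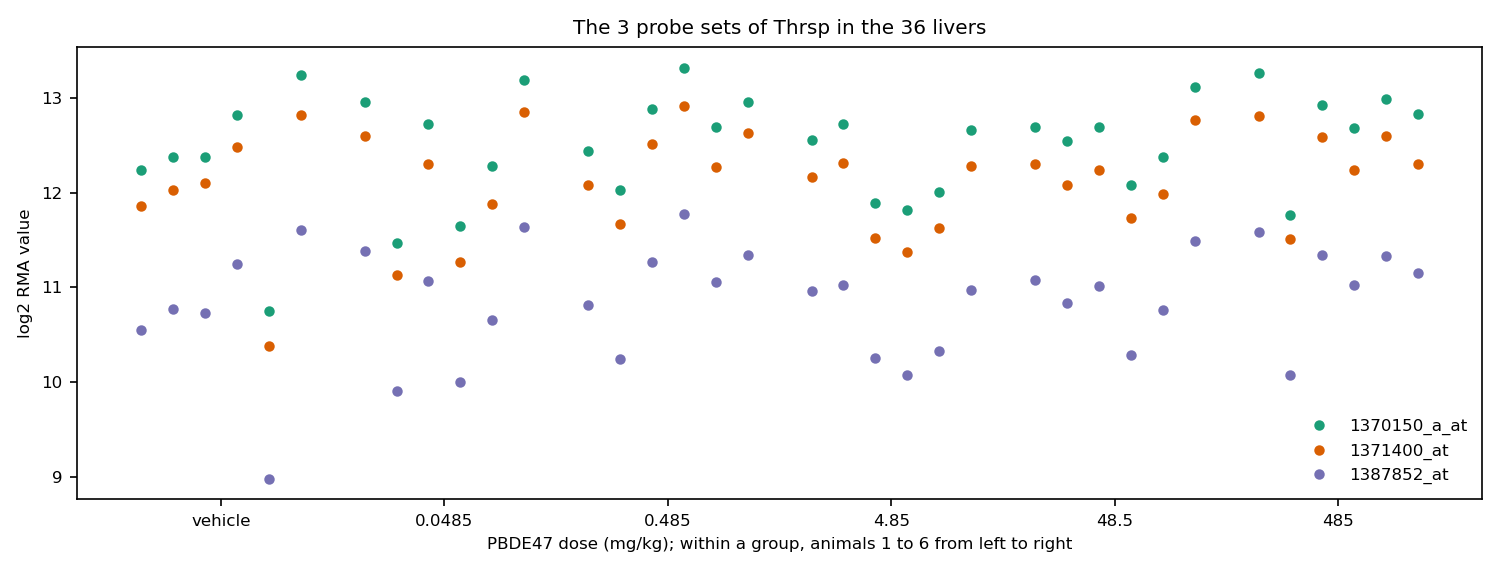
Log2 RMA levels of the 3 Thrsp probe sets (vertical axis, 1 colour per probe set) in each of the 36 livers, ordered by dose and within a group by replicate number (horizontal axis). The probe sets rise and fall together from animal to animal (r of 0.99 to 1.00), and the vehicle array of replicate 5 (10.75 for 1370150_a_at) lies lowest.

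Thrb encodes the receptor that mediates most thyroid hormone action in hepatocytes. Its brightest probe set (1394456_at) ran from 8.99 through a median of 9.24 to 9.49 at 485 mg/kg, against 9.30, 9.41 and 9.60 in vehicle. Of the arrays at 485 mg/kg, 3 of 6 lay below the vehicle range, and the SD was 0.22 against 0.10.
The change was -0.16 ± 0.08 with an interval of -0.33 to 0.00, and it did not pass (adjusted p = 0.198 in limma, 0.0519 before adjustment). The other probe sets of Thrb at this dose gave -0.10 ± 0.09 (1378457_at), -0.10 ± 0.27 (1370474_at) and -0.13 ± 0.10 (1387983_at), none called. At 48.5 mg/kg the 4 probe sets gave changes from -0.18 to 0.18, and at the lower doses from -0.10 to 0.04.

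Thra encodes the receptor that predominates in heart, bone and brain and is less abundant in liver. Its brightest probe set (1367726_at) ran from 6.34 through 6.58 to 6.68 at 485 mg/kg, against 6.09, 6.57 and 6.70 in vehicle, so every array at 485 mg/kg lay inside the vehicle range. Its change was 0.06 ± 0.08 with an interval of -0.10 to 0.23 (adjusted p = 0.695 in limma).
The largest change of this probe set was at 4.85 mg/kg, 0.18 ± 0.08, where p was 0.0351 before and 0.736 after adjustment. The other probe sets gave -0.14 ± 0.10 (1370691_a_at) and 0.09 ± 0.07 (1380518_s_at) at 485 mg/kg. The probe sets Thrb 1387983_at and Thra 1380518_s_at averaged below the array medians, which ran from 5.31 to 5.38, and no detection call was available for them.

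Probe sets of one gene can read different transcripts, so their changes were set against each other in pairs for Thrsp, Thrb and Thra at 48.5 and 485 mg/kg. None of 24 exact permutation tests, two-sided, passed after adjustment, and a single pair alone could not have done so, since its adjusted p could go no lower than 0.0519. The smallest exact p was 0.00649, for Thra 1367726_at minus 1370691_a_at at 48.5 mg/kg (difference of changes 0.27, adjusted p = 0.156), where 6 against 6 arrays allow a p of 0.00216 at the lowest.

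Over the 36 arrays, levels of Serpina7 and Crym correlated with r = 0.81, those of Serpina7 and Ttr with r = 0.72 and those of Ttr and Crym with r = 0.68. With the group means taken out the same pairs gave 0.23, 0.01 and -0.57, and Serpina7 and Thrsp gave -0.16. These are descriptions over arrays that share the doses and the normalization.

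The genes whose levels followed Serpina7 most closely over the 36 arrays were Pemt, which makes phosphatidylcholine from phosphatidylethanolamine (r = 0.90, and 0.55 within groups), the fatty acid binding protein gene Fabp7 (0.90 and 0.73) and Spp2, which encodes a secreted phosphoprotein (0.88 and 0.44). At 485 mg/kg their changes were -0.83 ± 0.08, -0.69 ± 0.10 and -0.37 ± 0.04, against -2.61 ± 0.35 for Serpina7. Those nearest to Crym were the protease inhibitor gene Serpina1 (0.93, and 0.55 within groups), the NADPH oxidase gene Nox4 (0.93 and 0.61) and the peroxisomal hydroxyacid oxidase gene Hao2 (0.92 and 0.34). Their changes were -0.25 ± 0.03, -2.00 ± 0.20 and -1.19 ± 0.08. Those nearest to Ttr were the plasma protein gene Ahsg (0.88, and 0.46 within groups), the cathepsin gene Ctsh (0.87 and 0.47) and Nrep (0.85 and 0.38).
For the remaining genes the likeness over the 36 arrays was lower. Dio1 was nearest to Map3k3 (0.65), Rnf169 (0.65) and Ubap1l (0.64). Thrsp was nearest to Shb (0.67, and 0.69 within groups) and to the circadian PAR-domain transcription factor genes Hlf (0.66 and 0.65) and Tef (0.66 and 0.64). Thrb was nearest to Trio (0.71), Apbb3 (0.67) and Zdhhc14 (0.64), and Thra to Hspb7 (0.68), Gstm7 (0.64) and Ttll11 (0.62).

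The wider pathway was read from 8 gene lists, each gene by its brightest probe set. Read that way, 20.9% of the 14217 genes were called at 485 mg/kg (11.5% higher, 9.43% lower), 5.11% were called at 48.5 mg/kg (4.03% higher, 1.08% lower), and for 4.85 mg/kg the share was 0.0352%. Among the plasma carriers 2 of 4 fell at 485 mg/kg, Serpina7 and Ttr, and none rose. Alb, the abundant low-affinity carrier, changed by -0.00 ± 0.03 (adjusted p = 0.955) and Rbp4, the retinol carrier that travels with transthyretin, by -0.06 ± 0.03 (adjusted p = 0.317 in limma).

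Of 10 measured membrane transporters of thyroid hormone or its amino acid relatives, 3 rose and 3 fell at 485 mg/kg, with a median change of -0.09 against -0.01 for all genes. Slc3a2 and Slc7a5, which form the heavy and light chains of a large neutral amino acid exchanger, rose by 0.70 ± 0.15 (adjusted p = 0.000592) and 0.69 ± 0.10 (adjusted p = 1.22e-06). Slc16a10, an aromatic amino acid transporter, fell by 0.51 ± 0.16 (adjusted p = 0.0216), and the organic anion transporter Slco1a4 rose by 0.37 ± 0.07 (adjusted p = 0.000138). Slc3a2 (0.59 ± 0.15) and Slc7a5 (0.33 ± 0.10) were also the 2 genes of this list called at 48.5 mg/kg. With each gene read as the mean of its probe sets, 2 rose and 1 fell at that dose.

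Of 9 measured deiodinase and conjugation genes, 2 rose and 4 fell at 485 mg/kg (median -0.01). Ugt2b1, a glucuronosyltransferase, rose 2.73-fold at 485 mg/kg (1.45 ± 0.11, adjusted p = 1.83e-12) and 2.38-fold at 48.5 mg/kg, and at 4.85 mg/kg it was 1.69-fold higher (adjusted p = 0.000490), a dose at which it was named after its value was seen. The sulfotransferases moved in both directions. Sult1c2 fell by 1.41 ± 0.15 (adjusted p = 4.69e-09), Sult1a1 by 0.47 ± 0.08 and Sult1c3 by 0.32 ± 0.05, with Dio1 the remaining gene that fell, and Sult1b1 rose by 0.37 ± 0.05. Dio2 and Dio3, the other deiodinase genes, were not called. Their vehicle means of 3.25 and 4.87 lay below the array medians of 5.31 to 5.38, where a change could hardly show. Ugt1a1, Ugt1a6 and Ugt1a7c were not analysed here.

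Of 7 genes that build selenoproteins, 2 rose and 1 fell at 485 mg/kg (median 0.08), or 3 and 1 by the mean of each gene's probe sets. Scly, which releases selenium from selenocysteine, rose by 0.49 ± 0.07 and Sepsecs, which makes selenocysteinyl transfer RNA, by 0.31 ± 0.06, and Trnau1ap fell by 0.21 ± 0.06. Scly (0.31 ± 0.07) and Sepsecs (0.30 ± 0.06) were called at 48.5 mg/kg as well. Of 17 selenoprotein genes, 2 rose and 1 fell (median -0.01): the thioredoxin reductases Txnrd1 (0.81 ± 0.08, adjusted p = 1.77e-09) and Txnrd2 (0.29 ± 0.06) and the falling Dio1. With each gene read as the mean of its probe sets, 2 rose and 3 fell.

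Among 18 measured receptor and cofactor genes, 1 rose and 1 fell at 485 mg/kg (median -0.01), and 0 were called at 48.5 mg/kg. With each gene read as the mean of its probe sets, 2 rose and 1 fell at 485 mg/kg. The coactivator Crebbp fell by 0.33 ± 0.08 (adjusted p = 0.00545) and the retinoid X receptor gene Rxrg rose by 0.23 ± 0.07 (adjusted p = 0.0313 in limma).

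Of 20 measured genes listed here as raised by thyroid hormone in rodent liver, 3 rose and 5 fell at 485 mg/kg (median -0.06 against -0.01 for all genes). Whether the hormone raises each listed gene was not tested in these data. Those that rose were Por, the electron donor of microsomal cytochromes P450 (1.94 ± 0.24, adjusted p = 1.41e-07), Me1, the malic enzyme (1.64 ± 0.12, adjusted p = 3.23e-13), and the acetyl-CoA carboxylase gene Acaca (0.70 ± 0.14). Those that fell were the gluconeogenic gene Pck1 (-1.36 ± 0.23, adjusted p = 3.19e-05), the fatty acid oxidation gene Cpt1a (-0.83 ± 0.17, adjusted p = 0.000552), the transcription factor genes Klf9 (-0.63 ± 0.16) and Srebf1 (-0.56 ± 0.20), and Dio1. The list had no common direction.
At 48.5 mg/kg 3 of the list rose and 1 fell. Por (1.16 ± 0.24), Me1 (0.76 ± 0.12) and Acaca (0.59 ± 0.14) were higher, and the desaturase gene Scd was 3.06-fold lower (-1.61 ± 0.45, adjusted p = 0.0347). Scd at 485 mg/kg changed by -0.93 ± 0.45 and did not pass.

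Of 3 measured cytosolic binders, Crym fell and Aldh1a1, a retinal dehydrogenase that also binds thyroid hormone, rose 4.04-fold at 485 mg/kg (2.02 ± 0.09, adjusted p = 2.69e-19). Aldh1a1 was also higher at 48.5 mg/kg (1.32 ± 0.09) and at 4.85 mg/kg (0.55 ± 0.09, adjusted p = 0.00138), the last named after its value was seen. P4hb changed by 0.07 ± 0.04 and was not called, and Pkm was not analysed here.

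**Figure D4:**
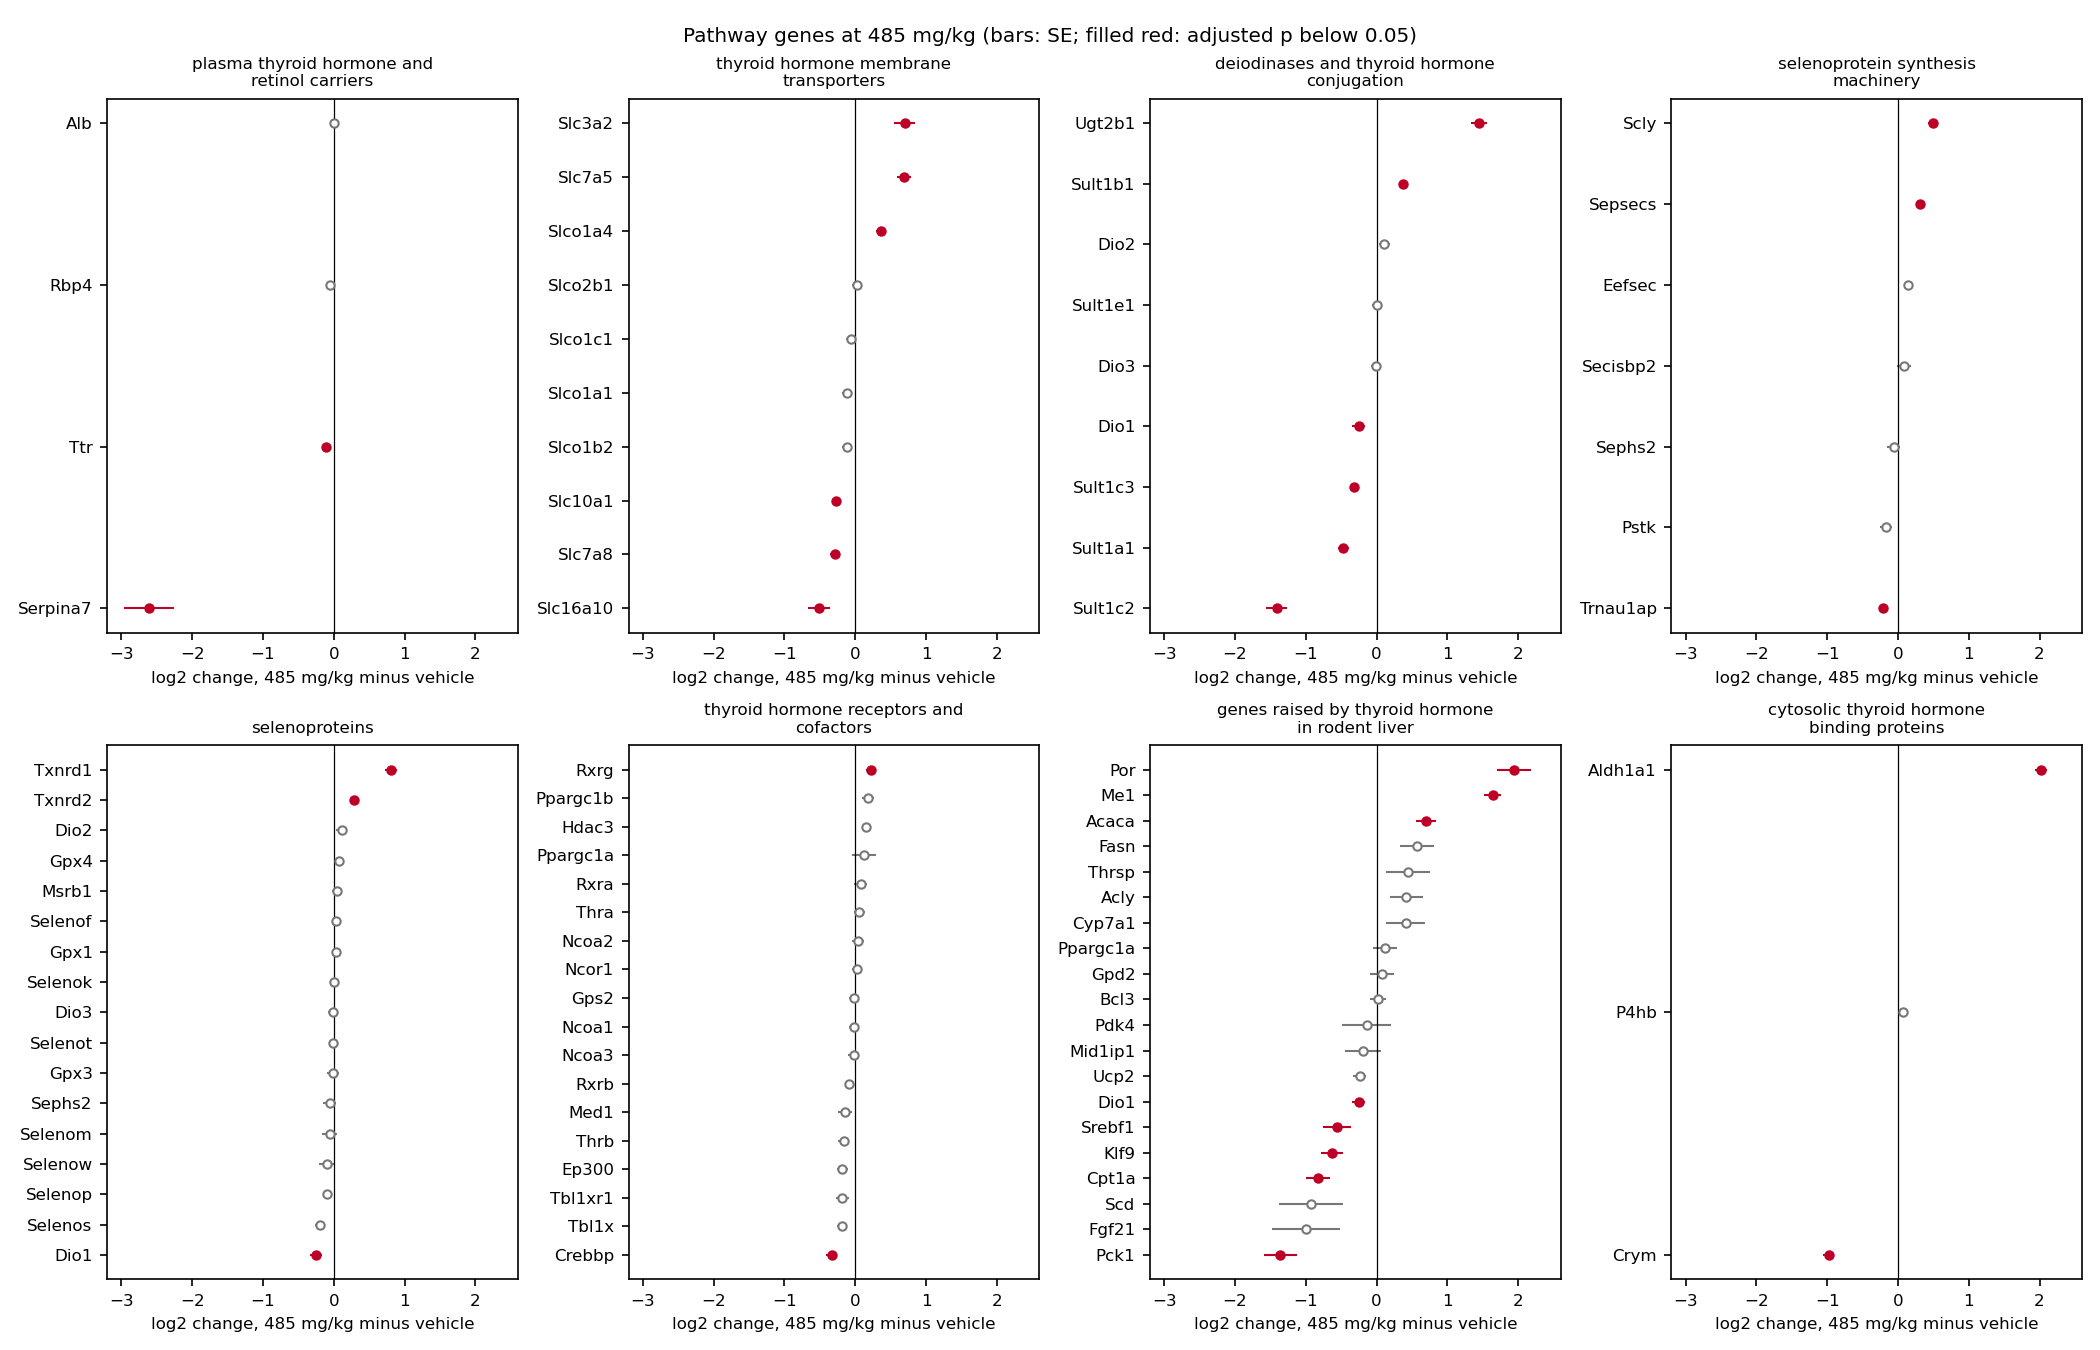
Log2 change at 485 mg/kg from vehicle (horizontal axis) of each measured gene of the pathway lists, one panel per list, with SE bars from limma and filled red points for an adjusted p below 0.05. Called genes stand on both sides of 0 in most panels, from Serpina7 at -2.61 to Aldh1a1 at 2.02.

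The labelled tissue was checked with cell type markers. The 7 measured hepatocyte markers had mean levels of 13.62 to 13.74 per array at 485 mg/kg and 13.81 to 13.89 in vehicle, and 4 of 7 were called lower (median -0.25), including Serpina1 (-0.25 ± 0.03), Apoa1 (-0.31 ± 0.06), Fgb (-0.31 ± 0.04) and Cps1 (-0.29 ± 0.05). The ranges did not overlap. Alb, the albumin gene, changed by -0.00 ± 0.03, at the top of the scale where a change could hardly show. Markers of Kupffer cells (3 of 5 lower, arrays at 7.99 to 8.67 against 8.77 to 9.05 in vehicle), of erythroid cells (3 of 4 lower, 6.68 to 7.04 against 7.30 to 7.69), of lymphocytes (3 of 6 lower, 5.06 to 5.38 against 5.40 to 5.64) and of sinusoidal endothelium (2 of 5 lower, 8.82 to 9.01 against 8.99 to 9.21) were called lower in part at 485 mg/kg. Stellate cell markers had 0 of 6 called and arrays at 7.63 to 8.21 against 7.61 to 8.47, and of 5 cholangiocyte markers 1 rose, Epcam (0.60 ± 0.10). Of 5 thyroid follicle markers, 4 lay below the array median in every group. Of the 6 lymphocyte markers, 5 lay below it at 485 mg/kg and 3 in vehicle, so much of that set read at a low level. Of all 14217 genes, 9.43% were called lower at 485 mg/kg. With each gene read as the mean of its probe sets, 3 hepatocyte, 4 erythroid and 4 lymphocyte markers were called lower at 485 mg/kg. The part of cell composition in the falls of the members was not tested.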

How the data were processed

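Liver RNA from 36 rats was measured on 36 Affymetrix rat arrays, labelled with the 3' IVT Plus kit per the labels' protocols. The deposited values are log2 RMA levels that the authors produced with the R package affy, per the submitters' processing notes; the versions are not given in the sources used here. RMA forces the probes of all arrays onto one distribution, so levels are relative, not absolute. Array medians ran from 5.31 to 5.38 and arrays of one group correlated with r of 0.990 to 0.997; 0 pairs were identical. Arrays have no depth, and their number limits the precision.

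Groups came from the sample labels. Of 31099 probe sets, 57 controls were left out. A linear model of the 6 groups was fitted over all 36 arrays with limma 3.58.1 in R 4.3.3 (lmFit, eBayes, 30 residual and 5.26 prior degrees of freedom), without a level filter. Tests were two-sided, and p-values were adjusted by Benjamini-Hochberg over 31042 probe sets within a comparison. The study named R/maanova, which was not used; the ordinary test of the same model is an alternative. Names came from the platform annotation, and Entrez identifiers found 20758 of the 20826 probe sets with 1 gene in the RefSeq table, which changed 0 symbols.

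All member probe sets are reported. A list gene is read by its brightest single-gene probe set, and up to 4 called genes per list were named at 485 mg/kg and 2 at 48.5 mg/kg; further called genes were named after their values were seen. The 3 genes nearest to each member were chosen by Pearson correlation. Members, lists, markers, motifs and alternatives were chosen with earlier results of these data known. The labels number the replicates of a group and were read as separate animals; otherwise p-values measure only the spread between samples. On simulated data for the comparison of 485 mg/kg with vehicle (31042 probe sets), 30.0% of probe sets with a log2 change of 0.25 were called, 96.0% at 0.5, 98.0% at 1 and 100% at 2, with 8 unchanged probe sets called. In that simulation 50 probe sets changed at each size, with normal noise of the same spread in every group. In the data 4665 probe sets were called at this dose, which moves the adjusted threshold, so these shares check the code and are not the call rates of the data. Alternatives were the replicate block, quantile normalization again, centring, a level filter (15521 probe sets), the ordinary test, trend and robust eBayes, the 12 arrays compared, a 1.5-fold minimum, and each array left out.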

Additional observations from a re-analysis of the deposited data

Results flagged for a closer look

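Of 84 groups of 6 arrays tested for a single array apart from the rest, 2 stood out (2.38%), where chance gives about 1 in 20. Dio1 (1369259_at) read 6.98 in replicate 5 at 0.0485 mg/kg, below the other 5 arrays of that group at 7.35 to 7.41. Thrsp (1387852_at) read 10.08 in replicate 2 at 485 mg/kg, below the others at 11.03 to 11.58, and the same animal was the lowest of its group for Thrsp 1370150_a_at, at 11.76.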

How the results depend on the processing

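The calls of Serpina7 and Crym at 485 mg/kg held under all 8 alternative settings and all 12 fits without 1 array. Of the 4 genes called at 485 mg/kg, 2 were called with quantile normalization again, 2 with a minimum change of 1.5-fold and 2 with only the 12 arrays compared, because Ttr and Dio1 dropped out; without 1 array the count was 3 to 4. With the replicate number as a block 3 were called, Dio1 having an adjusted p of 0.0553, and this block changed no other call at that dose; same-numbered arrays correlated with r of -0.12 to 0.14 at 485 mg/kg (1 of 6 pairs over 0.1) and -0.06 to 0.23 at 48.5 mg/kg (3 of 6, with 2 matching their own number best), so the numbers were not taken to pair the animals. Dio1 also lost its call with centring (0.0755), quantile normalization (0.0766) and the ordinary test (0.0572). Between 485 and 48.5 mg/kg the count was 2, with 3 (Ttr added) by the ordinary test and by trend and robust eBayes, and 0 with the 1.5-fold minimum. Between 48.5 and 4.85 mg/kg it was 0, and 1 (Serpina7) with only the 12 arrays. Over all probe sets, 4665 calls at 485 mg/kg became 177 with the 1.5-fold minimum, and 1052 at 48.5 mg/kg became 21 with it and 556 with the 12 arrays. Selenoprotein calls at 485 mg/kg numbered 3, and 5 by mean of probe sets. No called value changed sign; of uncalled values, 89 of 1104 did with 1 array left out and 4 of 722 under the other settings. Values near the array median or the top of the scale limit Thra, Thrb, Ttr and Alb.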
